A study of Homo sapiens with 9 samples.

Results

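Among the 10 genes described here are the coactivator genes YAP1 and WWTR1, their DNA-binding partner TEAD1 and 7 genes widely used as readouts of the pair: CCN1, CCN2, ANKRD1, AXL, AMOTL1, AMOTL2 and LATS2. They were chosen by name with their changes in these libraries already known, so their values are given as a description and no test is made of them. All 10 are among the 61544 genes listed, and all 10 passed the expression filter that left 14727 genes for testing. RNA came from HMC3 cells, an immortalized line made from human microglia, in 9 libraries, 3 for each of 3 treatments that lasted 6 days. SLO was a mixture of 10 µM SBI-0206965, which inhibits the autophagy kinase ULK1, 1 µM O-151, which inhibits the DNA glycosylase OGG1, and 1 µM Lopinavir, which blocks the maturation of Lamin A. SLO ½ held 5 µM SBI-0206965, 0.5 µM O-151 and 0.5 µM Lopinavir, and VEH held only DMSO, the solvent that all the groups received. A single line stands here for microglia. The study describes its graphs, some of them shown with RNA profiles, as independent experiments, but its methods and the labels do not say for the sequencing libraries themselves whether the 3 of a treatment came from separate cultures. If they did not, p-values measure only technical spread.

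YAP1 and TAZ, the protein of WWTR1, do not bind DNA themselves. In the nucleus they bind the TEAD factors and switch on genes of matrix, adhesion and growth, and the Hippo kinases MST and LATS hold them in the cytoplasm by phosphorylation. Contact between cells, stretch, a stiff substrate and actin tension set this balance, and some targets, LATS2 and AMOTL2 among them, feed back on the pathway as inhibitors. Phosphorylation and location of the proteins were not measured here. In bulk RNA a lower level can mean fewer cells with the transcript or less of it per cell, and these cannot be told apart.

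Libraries held 14834295 to 19674841 reads on genes, and no count of the 10 genes in any library was under 1322. Of 11 microglia markers 2 passed the expression filter (TREM2 and CSF1R), and P2RY12 and C1QA had no read in any library. For a count of 0 the limit, set at 3 counts and covering counting error only, is 0.157 to 0.199 counts per 1000000 reads on genes (CPM). Summed over these 11, microglia markers reached 1.46 to 2.52 TPM (transcripts per 1000000, a level scaled for length) in VEH libraries, 4.11 to 6.31 with SLO ½ and 4.8 to 5.08 with SLO. TREM2 and CSF1R, both scarce, were called up, by 1.38 to 1.78 on the log2 scale in SLO and 1.46 to 1.64 in SLO ½. Of all tested genes 32.9% and 26.7% were called up. With at least 10 counts required in every library, 0 microglia markers were called. The 9 mesenchymal markers summed to 3170 to 3310 TPM in VEH libraries, 3570 to 3630 with SLO ½ and 3540 to 3700 with SLO, mostly VIM and COL1A1. COL3A1, LUM, DCN and FAP did not pass the expression filter, and 2 of the 9 had no read in any VEH library. Of the 5 tested, 3 were called up and 2 down in SLO, beside 32.9% and 32.1% of all tested genes. In SLO ½ 3 were called up and 1 down, beside 26.7% and 25.3%. The 8 markers of astrocytes, neurons, oligodendrocytes and endothelium summed to 0.147 to 0.433 TPM in VEH libraries, 0.592 to 0.79 with SLO ½ and 1.56 to 1.66 with SLO, and of the 2 tested the neuronal MAP2 was called up, at 3, 0 and 3 counts in VEH, 16, 14 and 15 in SLO ½, and 45, 48 and 47 in SLO. Of 10 proliferation markers 9 fell in SLO by the edgeR test described below, where 32.1% of all tested genes fell. The other 1 rose by 0.10 on the log2 scale, a call lost in 9 of 16 alternative settings. The list summed to 6320 to 6340 TPM in VEH libraries, 5050 to 5370 with SLO ½ and 4630 to 4890 with SLO. Mitochondrial transcripts took 1.3% to 1.61% of the reads in VEH libraries, 2.3% to 2.86% with SLO ½ and 2.51% to 3.12% with SLO. These move with the treatments, and their part in the values below was not tested.

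TEAD factors recognise the core GGAATG, read on the other strand as CATTCC. Promoters of the 10 genes were searched for it on both strands in RefSeq windows of 300 bases, 250 before the start and 50 after it (build GRCh38.p14). The table used holds windows for 8 of the 10 genes, 11 windows in all, with none for CCN1 and TEAD1. GGAATG was found in 6 of the 11 windows, against 14.0% of all 35116 windows of the table. CCN2 had 3 copies, a number reached by 0.128% of windows, and ANKRD1 had 2, reached by 1.37%. YAP1, AMOTL2, LATS2 and AXL had 1 copy each, and for AMOTL2 and AXL it was in 1 of 2 windows. That of LATS2 lay after the start. The windows of WWTR1 and AMOTL1 had none. A match is a run of letters and does not show that a factor binds there. The 250 bases before the start of CCN2 (chr6:131951373-131951622, minus strand) and ANKRD1 (chr10:90921088-90921337, minus strand) are shown because these promoters hold the most copies and because ANKRD1 has the widest difference of the 10 genes. Both run 5′ to 3′ on the strand of the gene, with GGAATG in capitals.
CCN2: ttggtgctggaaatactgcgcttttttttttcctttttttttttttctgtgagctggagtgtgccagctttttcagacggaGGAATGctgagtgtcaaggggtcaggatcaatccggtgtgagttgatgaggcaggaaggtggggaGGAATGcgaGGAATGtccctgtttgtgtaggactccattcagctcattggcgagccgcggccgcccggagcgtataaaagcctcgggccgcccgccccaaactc
ANKRD1: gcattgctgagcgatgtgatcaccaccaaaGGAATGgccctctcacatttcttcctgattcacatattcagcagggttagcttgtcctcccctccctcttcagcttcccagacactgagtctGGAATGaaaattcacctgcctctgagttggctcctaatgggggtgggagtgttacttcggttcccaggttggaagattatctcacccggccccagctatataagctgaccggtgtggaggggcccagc
Counted back from the start, with -1 as the last base shown, the copies in CCN2 begin at -169, -104 and -95, so that 2 of them lie close together. In ANKRD1 they begin at -220 and -128. For AP-1 the loose form TGANTCA was searched, in which N is any base. It was found in the window of ANKRD1 at -195, apart from these copies, and in no other window of the 10 genes. Of all windows 7.71% held it. The match in ANKRD1 has T at the free position, and it is not taken as an AP-1 site here. The CArG box, the site of serum response factor, was in none of the 11 windows, against 1.29% of all.

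Levels of different genes can be compared only per transcript length, for which the deposited TPM were used. In VEH the secreted matrix proteins CCN1 and CCN2 led the 10 genes, at 1644 ± 60.3 TPM (SD, n = 3, as for all means here) and 1178 ± 84.0 TPM. The receptor AXL followed at 977 ± 18.4 TPM. TEAD1 (362 ± 8.83 TPM) and ANKRD1 (357 ± 47.7 TPM) overlapped in their libraries, and then came YAP1 at 267 ± 8.23, AMOTL2 at 205 ± 3.36 and LATS2 at 99.8 ± 5.24 TPM. WWTR1 at 61.7 ± 2.67 TPM and AMOTL1 at 39.6 ± 2.52 TPM were lowest. All neighbours in this order except TEAD1 and ANKRD1 were separate in every VEH library. In SLO ½ the order opened with CCN2 at 1358 ± 10.3 TPM, followed by ANKRD1 at 1253 ± 5.77 and CCN1 at 1233 ± 21.7 TPM, of which the last 2 overlapped. In SLO the order opened with ANKRD1 at 2484 ± 154 TPM, ahead of CCN2 at 1568 ± 103 and CCN1 at 1289 ± 51.1 TPM with no overlap. AXL stood at 521 ± 14.4 TPM in SLO, still above TEAD1 at 354 ± 10.9 TPM. YAP1 (210.5 ± 9.10 TPM) overlapped there with AMOTL2 (201 ± 7.37 TPM), and WWTR1 (108 ± 3.16 TPM) had passed LATS2 (100.5 ± 2.15 TPM). The 10 genes together took 5070 to 5260 TPM in VEH libraries, 5360 to 5490 with SLO ½ and 6590 to 7230 with SLO. Within these sums ANKRD1 alone went from 357 TPM in VEH to 1253 with SLO ½ and 2484 with SLO. The other genes went both ways, with CCN1 and AXL lower in SLO and CCN2 higher, so the sums do not stand for them.

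**Figure D1:**
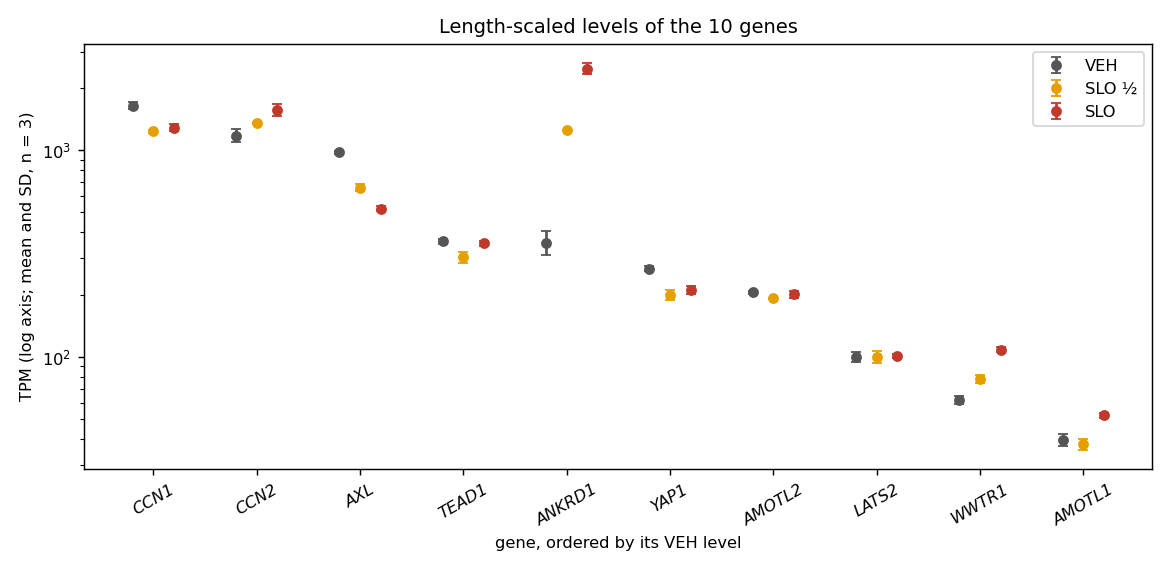
TPM of the 10 genes on a log axis, ordered by their level in VEH, with points for the group mean and whiskers for the SD of 3 libraries. ANKRD1 climbs from 357 TPM in VEH to 2484 TPM in SLO, above every other gene shown, whereas AMOTL2 and LATS2 stay nearly level across the groups.

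After treatment ANKRD1, WWTR1 and CCN2 were higher in steps with the dose, ANKRD1 in SLO by 6.98 times, and AXL was lower in steps with the dose. CCN2 was higher by less than ANKRD1, CCN1 and YAP1 were lower by about the same amount at both doses, and AMOTL1 was higher in SLO and overlapped with VEH in SLO ½. AMOTL2 and LATS2 stood close to VEH, and TEAD1 was lower in SLO ½ but not separate from VEH in SLO. Differences between treatments were taken from CPM, scaled with edgeR's TMM factors. Each is a log2 fold change with its standard error from edgeR's quasi-likelihood model, fitted to the 9 libraries together. The standard error was derived as the absolute log2 fold change divided by the square root of the model's F statistic. SLO and SLO ½ are compared with the same 3 VEH libraries, so the values of the doses are not independent of each other. In SLO against VEH the libraries of the groups did not overlap for 7 of the 10 genes, where 66.7% of all tested genes did not overlap. The figures were 8 of 10 beside 58.3% of all genes in SLO ½ against VEH, and 6 of 10 beside 51.0% in SLO against SLO ½. The 10 genes were picked with these differences known, so nothing is read from their counts.

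**Figure D2:**
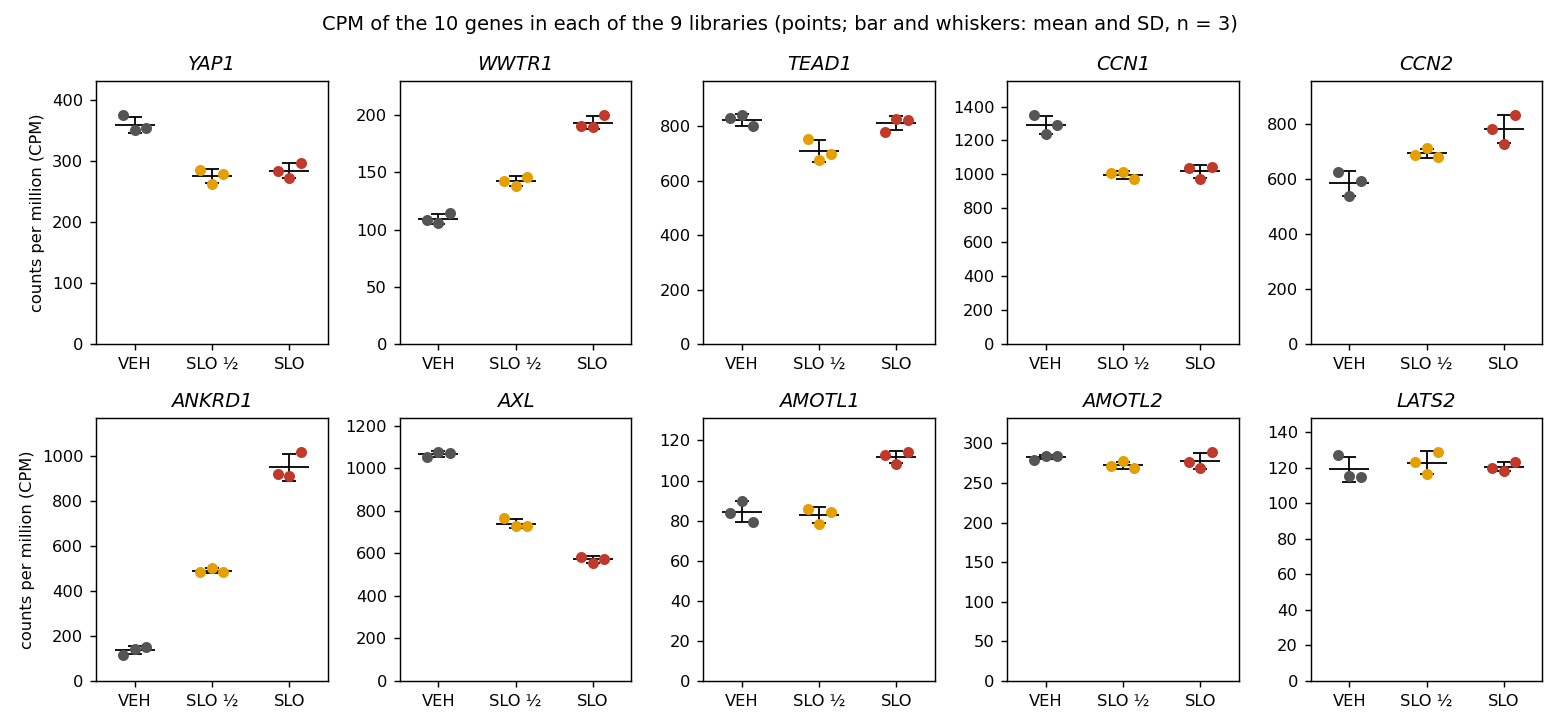
CPM of each gene in each of the 9 libraries on axes from 0, with the mean as a bar and the SD of 3 libraries as whiskers. ANKRD1, WWTR1 and CCN2 are higher and AXL is lower at each dose with no overlap. YAP1 and CCN1 are lower by a like amount at both doses, and LATS2 overlaps in all groups.

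The 2 coactivator genes differed in opposite directions. YAP1 (chr11:102110447-102233424) had 374, 349.5 and 353 CPM in the VEH libraries, 284, 262 and 279 in SLO ½, and 282, 272 and 297 in SLO. All 6 treated libraries were lower than all VEH libraries, and the 2 doses overlapped. The log2 fold change of YAP1 was -0.38 ± 0.0427 (SE) in SLO ½ and -0.34 ± 0.0428 in SLO, and between the doses 0.04 ± 0.0430. WWTR1 (chr3:149517235-149736714), which encodes TAZ, had 108, 106 and 114 CPM in VEH, 143, 138 and 146 in SLO ½, and 191, 189 and 199.9 in SLO. Its 3 groups were separate and ordered by dose. The log2 fold change of WWTR1 was 0.38 ± 0.0430 in SLO ½, 0.82 ± 0.0425 in SLO, a level 1.76 times that of VEH, and 0.44 ± 0.0415 in SLO against SLO ½.

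Within each library the TPM of WWTR1 was a larger share of that of YAP1 after treatment. The ratio was 0.219, 0.229 and 0.245 in the VEH libraries, 0.379, 0.399 and 0.397 in SLO ½, and 0.511, 0.526 and 0.509 in SLO. The 3 groups did not overlap, and their means were 0.231 ± 0.0133, 0.392 ± 0.0107 and 0.515 ± 0.00903. YAP1 therefore remained the more abundant transcript of the pair per length in all 9 libraries. A ratio within a library does not depend on how libraries are scaled to each other, but it does not tell which of the pair changed.

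TEAD1 (chr11:12674421-12944737), the DNA-binding partner of both, had 829.5, 840.2 and 799.8 CPM in VEH, 754, 678 and 697 in SLO ½, and 781, 828 and 823 in SLO. It was lower than VEH in all 3 SLO ½ libraries, and SLO overlapped with VEH. In log2 terms the difference for TEAD1 was -0.21 ± 0.0428 in SLO ½ and 0.19 ± 0.0428 in SLO against SLO ½. In SLO against VEH it was -0.02 ± 0.0427, and its sign turned with scaling by library size alone (0.05), with at least 10 counts in every library (0.0011) and without SLO replicate 1 (0.0036), so no direction is given for it.

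The 4 targets that do not act on the Hippo pathway itself took 3 different courses, and the widest difference was that of ANKRD1. ANKRD1 (chr10:90912096-90921087) encodes an ankyrin-repeat protein that acts in the nucleus and in the muscle sarcomere and responds to stretch. Its CPM were 116, 141 and 149.9 in VEH, 485, 502 and 486 in SLO ½, and 921, 911 and 1018 in SLO. The groups lay far apart and in the order of dose, and VEH varied most in proportion (136 ± 17.4 CPM). The log2 fold change of ANKRD1 was 1.85 ± 0.0600 in SLO ½ and 2.80 ± 0.0610 in SLO, or 3.61 and 6.98 times the VEH level. From SLO ½ to SLO it was 0.95 ± 0.0560, or 1.94 times. The median absolute log2 fold change of all tested genes was 0.34 in SLO and 0.23 in SLO ½. In SLO the differences of YAP1 and CCN1 were about as large as this median.

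CCN1 (chr1:85580761-85584589), a secreted matricellular protein also called CYR61, had 1348, 1239 and 1291 CPM in VEH, 1010, 1013 and 972 in SLO ½, and 1038, 972 and 1044 in SLO. Every treated library was lower than every VEH library, and the doses overlapped, as for YAP1. The log2 fold change of CCN1 was -0.37 ± 0.0420 in SLO ½ and -0.34 ± 0.0421 in SLO, and 0.03 ± 0.0421 between the doses. Its relative CCN2 (chr6:131948176-131951372), also called CTGF, differed the other way. CCN2 had 626, 538 and 593 CPM in VEH, 688, 713 and 683 in SLO ½, and 785, 731 and 833 in SLO. The 3 groups did not overlap, with SLO highest. The log2 fold change of CCN2 was 0.25 ± 0.0491 in SLO ½, 0.42 ± 0.0492 in SLO and 0.17 ± 0.0489 between the doses, so that in SLO it stood at 1.34 times VEH.

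The ratio of CCN2 to CCN1 in TPM was 0.735, 0.687 and 0.726 in the VEH libraries, 1.08, 1.11 and 1.11 in SLO ½, and 1.20, 1.19 and 1.26 in SLO. CCN1 was the more abundant of the pair per length in all VEH libraries and CCN2 in all treated ones. Group means of this ratio were 0.716 ± 0.0259, 1.10 ± 0.0205 and 1.22 ± 0.0403.

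**Figure D3:**
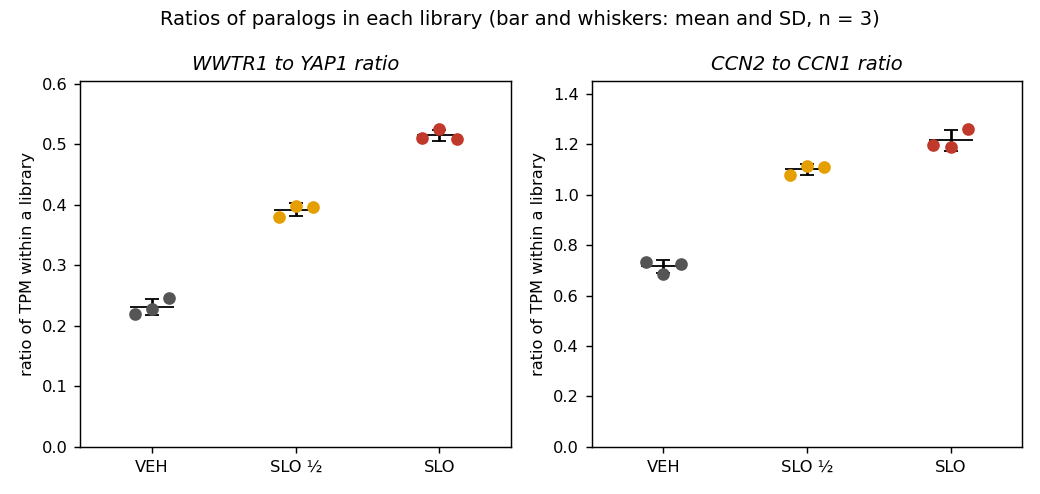
Ratio of TPM of WWTR1 to YAP1 (left) and of CCN2 to CCN1 (right) in each of the 9 libraries, with the mean as a bar and the SD of 3 libraries as whiskers. Both ratios are higher at each dose without overlap: the mean ratio goes from 0.231 to 0.515 for WWTR1 to YAP1 and from 0.716 to 1.22 for CCN2 to CCN1.

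AXL (chr19:41219223-41261766), a receptor tyrosine kinase for the ligand GAS6, had 1051, 1076 and 1072 CPM in VEH, 764, 726 and 728 in SLO ½, and 585, 555 and 574 in SLO. The groups did not overlap, and the order followed the dose downwards. AXL is the only one of the 10 genes that was lower at each step from VEH to SLO ½ to SLO without overlap of libraries. Its log2 fold change was -0.53 ± 0.0391 in SLO ½, -0.90 ± 0.0394 in SLO, where VEH stood 1.87 times higher, and -0.37 ± 0.0394 in SLO against SLO ½.

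The remaining members restrain YAP1 and TAZ. Angiomotin-like proteins are scaffolds of cell junctions and actin that bind YAP1 and TAZ and keep them out of the nucleus. AMOTL1 (chr11:94706431-94876748) had 83.9, 90.0 and 79.4 CPM in VEH, 86.0, 78.5 and 84.2 in SLO ½, and 113, 108 and 114 in SLO. SLO was higher than all other libraries, and SLO ½ overlapped with VEH. On the log2 scale AMOTL1 differed from VEH by 0.41 ± 0.0485 in SLO and by -0.02 ± 0.0495 in SLO ½, with 0.43 ± 0.0484 between the doses. In SLO ½ the sign turned without VEH replicate 2 (0.02), without SLO ½ replicate 2 (0.01) and with scaling by library size alone (0.03).

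AMOTL2 (chr3:134355347-134375479) had 279, 285 and 284 CPM in VEH, 271, 277 and 268 in SLO ½, and 276, 269 and 289 in SLO. SLO ½ lay just below VEH without overlap, at a log2 fold change of -0.05 ± 0.0389, and SLO spanned both at -0.02 ± 0.0390. LATS2 (chr13:20973036-21061586), a kinase that phosphorylates YAP1 and TAZ, had 127, 115 and 115 CPM in VEH, 123, 116 and 129 in SLO ½, and 119.9, 118 and 123 in SLO. All 3 groups of LATS2 overlapped, and its log2 fold changes were 0.05 ± 0.0465 in SLO ½ and 0.02 ± 0.0468 in SLO. For both genes the difference in SLO was smaller than its standard error. The sign in SLO turned for AMOTL2 with scaling by library size alone (0.05) and for LATS2 without VEH replicate 2 (-0.0043), without VEH replicate 3 (-0.0087) and without an expression filter (-0.0023). In SLO ½ that of LATS2 turned without SLO ½ replicate 3 (-0.0024), and between the doses it turned without the same library (0.014) and with limma (0.0080).

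**Figure D4:**
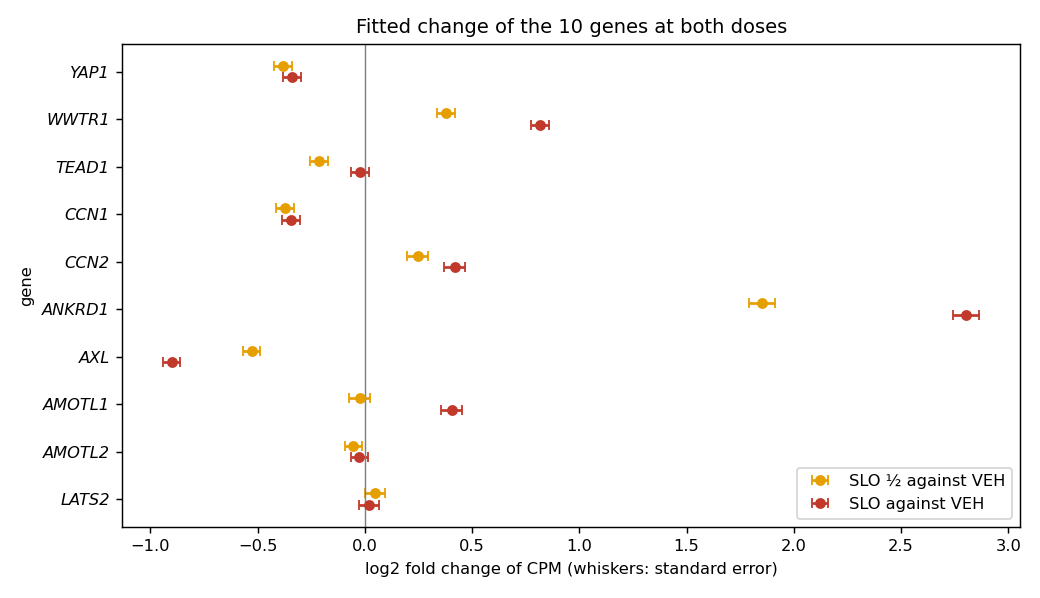
Log2 fold change of CPM against VEH for the 10 genes, with SLO ½ and SLO as separate points and whiskers for the standard error of the fit. WWTR1, CCN2 and ANKRD1 lie above 0 at both doses, YAP1, CCN1 and AXL below 0 at both, AMOTL1 above 0 in SLO, TEAD1 below 0 in SLO ½, and AMOTL2 and LATS2 within 0.1 of 0.

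For the 4 targets outside the pathway, the most similar courses over the 9 libraries were looked for among 10875 genes. These averaged a log2 CPM of at least 2 over all 9 libraries. Similarity was the smallest Euclidean distance in log2 CPM centred on VEH. Nearest to ANKRD1 were ITGA1 (distance 0.547), which encodes an integrin subunit that binds collagen, ACTC1 (0.585), cardiac alpha-actin, and MMP2 (0.588), a matrix metalloproteinase. They had 8.77, 3.45 and 2.99 CPM in VEH, and their log2 fold changes in SLO were 2.75, 2.77 and 2.85. ACTC1 and MMP2 were under the required average in VEH and met it only through the treated libraries. Genes as low in VEH that did not rise were therefore not compared. Nearest to AXL were IRS1 (0.0930), an adaptor of the insulin receptor, MMS19 (0.116) and SSRP1 (0.139). CCN1 had COG5 (0.0968), ATF2 (0.102) and PJA2 (0.103) nearest, and CCN2 had TEX30 (0.175), BECN1 (0.178) and MOAP1 (0.180). None of these is among the 10 genes or the lists below.

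Genes around the 10 were followed in lists written from general knowledge of the pathway and tested with edgeR's quasi-likelihood test across all 14727 genes, with Benjamini-Hochberg adjustment and a gene called at an adjusted p below 0.05. In SLO against VEH 32.9% of all tested genes were called up and 32.1% down, in SLO ½ against VEH 26.7% and 25.3%, and in SLO against SLO ½ 20.8% and 20.3%. Median log2 fold changes over all tested genes were 0.014, 0.015 and -0.0014 in these comparisons.

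The 23 kinases, scaffolds and upstream cadherins of the Hippo pathway beside the 10 genes were all expressed. In SLO 11 of them rose, 9 fell and 3 (AMOT, NF2 and WWC2) did not pass, with a median of -0.0012. In SLO ½ 6 rose and 10 fell (median -0.03), and from SLO ½ to SLO 9 rose and 4 fell (median 0.09). No direction is read from these medians, which without single libraries ranged in SLO from -0.02 (VEH replicate 3) to 0.05 (VEH replicate 1), in SLO ½ from -0.13 (VEH replicate 1) to 0.04 (VEH replicate 2), and between the doses from 0.03 (SLO replicate 3) to 0.10 (SLO ½ replicate 2). STK3, which encodes the kinase MST2, fell by 0.45 on the log2 scale in SLO (SE 0.0480, edgeR adjusted p = 2.28e-09), and FRMD6, a membrane-associated activator, fell by 0.35 (SE 0.0382, 4.20e-09). SAV1, the scaffold of MST, rose by 0.36 (SE 0.0413, 1.27e-08), TAOK2, a kinase that activates MST, by 0.33 (SE 0.0421, 6.09e-08), RASSF1, which binds MST, by 0.75 (SE 0.0720, 3.02e-10), and the scarce WWC3 by 1.02 (SE 0.164, 3.16e-06). WWC1, which encodes the LATS activator KIBRA, rose by 0.31 in SLO ½ (SE 0.0474, edgeR adjusted p = 2.26e-06) and fell by 0.15 in SLO (SE 0.0494, 0.00941), a call lost without VEH replicate 3 (-0.11, adjusted p = 0.0792). FAT4, an atypical cadherin, fell by 0.51 in SLO ½ (SE 0.0851, edgeR adjusted p = 1.01e-05) and rose by 0.27 in SLO (SE 0.0807, 0.00465), a call also lost without VEH replicate 3 (0.16, adjusted p = 0.0774).

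The other TEAD genes and the VGLL cofactors, which bind TEAD in place of YAP1 and TAZ, make a list of 7, of which VGLL1 and VGLL2 (2 counts or fewer in every library) were not tested. In SLO 2 rose and 2 fell (median 0.02), in SLO ½ 1 rose and 1 fell (median 0.04), and from SLO ½ to SLO 2 rose and 1 fell (median -0.02). Without single libraries the medians ranged in SLO from -0.01 (VEH replicate 3) to 0.08 (VEH replicate 1), in SLO ½ from 0.02 (SLO ½ replicate 3) to 0.07 (SLO ½ replicate 2), and between the doses from -0.08 (SLO ½ replicate 2) to 0.07 (SLO replicate 1). VGLL4, which competes with YAP1 for TEAD, had 28.4 ± 1.11 CPM in VEH libraries, 40.3 ± 2.36 with SLO ½ and 49.3 ± 0.342 with SLO, and rose by 0.51 (SE 0.0597, edgeR adjusted p = 3.46e-08) and by 0.80 (SE 0.0587, 1.00e-12). VGLL3 rose in SLO by 0.49 (SE 0.0488, 7.14e-10) and stood at 0.01 in SLO ½ (0.879), and TEAD3 stood at 0.02 in SLO (0.801). TEAD2 was called down in SLO (-0.25, 0.0282) and SLO ½ (-0.23, 0.0461) and TEAD4 in SLO (-0.13, 0.0240), but no such call held with DESeq2 or with scaling by library size alone. They were also lost without single libraries: TEAD2 in SLO without VEH replicate 1 (-0.21), VEH replicate 2 (-0.21) or SLO replicate 1 (-0.16), TEAD2 in SLO ½ without VEH replicate 1 (-0.19), VEH replicate 2 (-0.19), SLO ½ replicate 2 (-0.17) or SLO ½ replicate 3 (-0.26), and TEAD4 without VEH replicate 2 (-0.12), VEH replicate 3 (-0.13), SLO replicate 1 (-0.13) or SLO replicate 2 (-0.13).

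CCN1, CCN2, ANKRD1, AXL, AMOTL2 and LATS2 are 6 genes of a list of 22 YAP and TAZ targets. The list was written from general knowledge of a published signature, and its membership was not checked against that source. Its counts and medians may therefore differ from those of the signature. Of the other 16 all but FOXF2, which had no read in any library, were tested. In SLO 4 of the 15 rose (NT5E, IGFBP3, DOCK5 and ARHGEF17) and 8 fell (median -0.12), in SLO ½ 3 rose and 8 fell (median -0.19), and from SLO ½ to SLO 4 rose and 8 fell (median -0.19). Without VEH replicate 1 the median in SLO ½ was -0.08. NT5E, the ecto-enzyme CD73 that makes adenosine, had 16.6 ± 2.44 CPM in VEH libraries, 52.5 ± 2.04 with SLO ½ and 42.5 ± 0.447 with SLO, and rose by 1.65 (SE 0.0721, edgeR adjusted p = 3.07e-17) and by 1.34 (SE 0.0744, 1.94e-15). RBMS3, an RNA-binding protein, had 49.6 ± 2.43, 24.3 ± 1.68 and 13.8 ± 0.706 CPM in the same order, and fell by 1.03 and by 1.85 (SE 0.0707, 4.25e-19). In SLO CCDC80, a secreted matrix protein, fell by 1.53 (SE 0.0524, 2.76e-20), ASAP1, a regulator of Arf GTPases, by 0.68 (SE 0.0407, 1.19e-14) and F3, tissue factor, by 0.69 (SE 0.0460, 1.03e-13), and F3 stood at 0.06 in SLO ½ (0.221). In RefSeq windows, which the table holds for 12 of the 16, GGAATG was in 4 and TGANTCA in 1, that of F3.

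**Figure D5:**
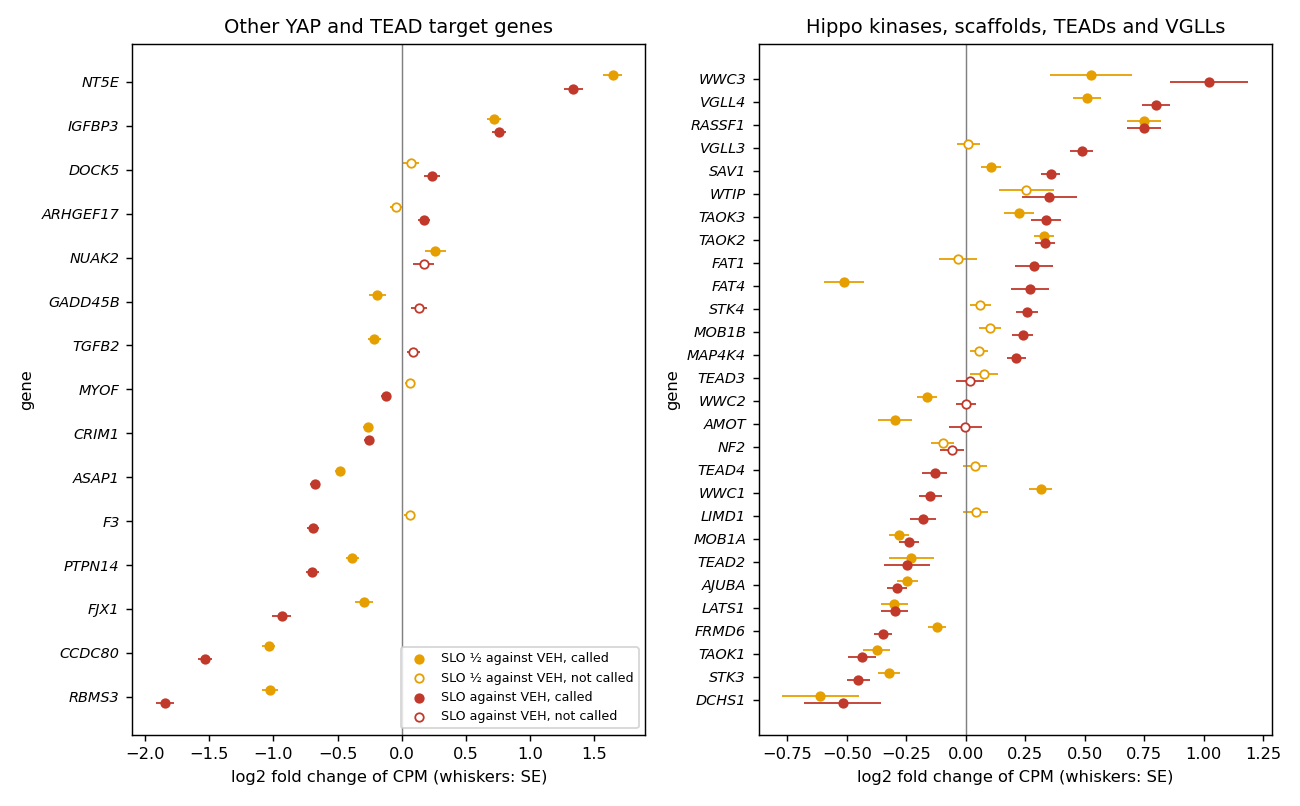
Log2 fold change of CPM against VEH for 15 other targets of YAP1 and TAZ (left) and for 28 Hippo kinases, scaffolds, TEAD and VGLL genes (right), ordered by the value in SLO, with whiskers for the standard error. Filled points are called at an adjusted p below 0.05 and open points are not: the targets run from -1.85 for RBMS3 to 1.34 for NT5E in SLO, and the pathway genes from -0.52 for DCHS1, a call lost without VEH replicate 1 (-0.31, adjusted p = 0.0951), to 1.02 for WWC3.

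Relatives of AXL, CCN1, CCN2 and ANKRD1, together with GAS6 and PROS1, ligands of the receptor family of AXL, make a list of 10. The list is called relatives for short, and its CCN4, CCN5, CCN6 and ANKRD23 were too low to be tested. Of the other 6, 3 rose and 1 fell in SLO (median 0.54), 3 rose and 2 (TYRO3 and PROS1) fell in SLO ½ (median 0.35), and from SLO ½ to SLO 2 rose and 0 fell (median 0.32). The median in SLO ½ was 0.17 without SLO ½ replicate 3, that between the doses 0.18 without SLO replicate 2, and with at least 10 counts in every library the medians were 0.34 in SLO and 0.06 in SLO ½. The call of PROS1 in SLO ½ (-0.39, edgeR adjusted p = 0.0121) was lost without VEH replicate 1 (-0.23, adjusted p = 0.147). Of the receptors related to AXL, MERTK rose by 0.41 in SLO ½ and by 0.80 in SLO (SE 0.0858, edgeR adjusted p = 2.99e-09), and TYRO3 fell by 0.31 and by 0.36 (SE 0.0859, 0.00059). Their shared ligand GAS6 rose by 0.40 and by 0.50 (SE 0.0631, 7.05e-08), while AXL was lower at both doses. CCN3, scarce at 5, 2 and 9 counts in the VEH libraries, 31, 35 and 38 in SLO ½, and 31, 48 and 45 in SLO, rose by 2.63 and by 2.97 (SE 0.333, edgeR adjusted p = 6.22e-09), or by 1.56 and by 1.85 with limma on log2(TPM + 1), where the pseudocount is large beside its level. ANKRD2, the relative of ANKRD1 that could be tested, was near 1 CPM and was not called (0.59 in SLO, 0.116).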

How the data were processed

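Polyadenylated RNA of 9 HMC3 libraries (KAPA RNA HyperPrep kit) was trimmed with Trimmomatic 0.38, aligned to GRCh38 with STAR 2.7.1a and counted per gene and strand by the authors. The deposited counts are raw whole numbers. A second set of deposited values is TPM, which the authors scaled for gene length and library size; how length was set and the annotation release are not given in the sources used here. Rows without a gene (18% to 20.1% of reads) were left out. Groups came from the sample labels.

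Genes were filtered with filterByExpr, scaled by TMM and fitted with the quasi-likelihood test of edgeR 4.0.16 in R 4.3.3 on all 9 libraries, with group as the only term. DESeq2 1.42.0, limma 3.58.1 on log2(TPM + 1), other filters and scalings, single groups and single libraries left out were alternatives. The members and lists were chosen with earlier results of these data known. Named genes of a list were the 5 with the smallest p in SLO, those called with an absolute log2 fold change above 1, those called in opposite directions at the 2 doses, and all TEAD and VGLL genes. IGFBP3, DOCK5, ARHGEF17, AMOT, NF2, WWC2, PROS1 and MAP2 were named after their values were seen to complete a count. DCHS1 was likewise named after its value was seen, as the lowest of the pathway genes in a figure. No protein sequence was used here, and 1 further marker of the microglia list is not reported here.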

Additional observations from a re-analysis of the deposited data

Results flagged for a closer look

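The log2 fold changes of FAT4 and WWC1 against VEH had opposite signs at the 2 doses, and the difference between the doses was itself called by edgeR's quasi-likelihood test. FAT4 had 58.7, 73.3 and 52.4 CPM in VEH, 47.2, 44.2 and 37.1 in SLO ½, and 68.6, 76.5 and 76.0 in SLO, so that SLO lay above SLO ½ in all libraries and overlapped with VEH. For FAT4 SLO minus SLO ½ was 0.78 (SE 0.0837, edgeR adjusted p = 1.24e-08). WWC1 had 59.7, 59.6 and 64.5 CPM in VEH, 77.3, 75.2 and 76.4 in SLO ½, and 55.6, 54.0 and 56.5 in SLO, with no overlap of the groups. For WWC1 SLO minus SLO ½ was -0.46 (SE 0.0481, edgeR adjusted p = 6.70e-09).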

How the results depend on the processing

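Counts of called genes, list medians and the log2 fold changes of members and list genes were recomputed with DESeq2, with other scalings and expression filters, with only the groups compared, with a replicate block, with limma on TPM, and without each library in turn; CCN3 and ANKRD2 did not pass the filter that required 10 counts in every library. No called result changed sign, and the turns of sign of TEAD1, AMOTL1, AMOTL2 and LATS2 are given above. In SLO against VEH the log2 fold change stayed between 2.71 and 2.88 for ANKRD1, between 0.79 and 0.89 for WWTR1, between 0.36 and 0.49 for CCN2, between -0.37 and -0.26 for YAP1, between -0.37 and -0.27 for CCN1, and between -0.92 and -0.83 for AXL. Counts that moved by over 1.5 times were few, and the cause was not tested. With scaling by library size alone, the Hippo kinases and scaffolds that rose in SLO ½ went from 6 to 10, and the other targets that rose numbered 7 in SLO in place of 4, and 5 in SLO ½ in place of 3; 7 other targets also rose in SLO with at least 10 counts required in every library. With limma on TPM, with either pseudocount or without a filter, 3 Hippo genes rose in SLO ½, and without a filter 1773 genes fell from SLO ½ to SLO in place of 2996 and 1 relative fell in SLO ½ in place of 2. Of TEAD and VGLL genes, 2 fell in SLO and 1 in SLO ½. These became 0 and 0 with DESeq2 or by library size alone, 1 and 0 with at least 10 counts in every library, and 1 and 0 with limma without a filter. Without single libraries they ranged from 0 to 2 and from 0 to 1. Relatives that fell in SLO ½ ranged from 1, without VEH replicate 1, to 2.

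Of the 2346 alternative values of single list genes in 147 gene and comparison pairs, 2220 kept their side of the threshold, 100 lost the call and 26 gained it. FAT4 in SLO also lost its call with DESeq2 (0.26, adjusted p = 0.117) and with limma on TPM (0.25 to 0.26, adjusted p = 0.0856 with either pseudocount and 0.2 without a filter), DCHS1 with limma without a filter in SLO (-0.37, adjusted p = 0.181) and in SLO ½ (-0.45, adjusted p = 0.126), and WWC1 in SLO with scaling by library size alone (-0.07, adjusted p = 0.181). The labels give no shared source for a replicate number, and the numbers were not taken to pair the libraries: deviations of same-numbered libraries from their group means correlated at 0.00277 to 0.0873 over 9 pairs, all above 0 but none above 0.1. As a hint from the data, in 11 of 18 comparisons a library correlated best with its own number. Each comparison chose among the 3 libraries of another group. The 18 reuse the same 9 libraries, so they are not independent of each other. With the replicate block 4877 genes rose and 4745 fell in SLO, beside 4843 and 4722 without it, and 5 other targets rose in place of 4. The members had at least 1322 counts in each library, so that depth limits low genes such as CCN3 and not the members.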
